A study of Mus musculus with 6 samples.

Results

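The integrin and laminin genes were examined in bulk RNA-seq libraries of PDVC57 cells, an established mouse line of skin squamous cell carcinoma. Members were taken by name: integrin alpha genes with a number or a single letter (Itga1 to Itga11, Itgad, Itgae, Itgal, Itgam, Itgav and Itgax), integrin beta genes with 1 digit (Itgb1 to Itgb8) and laminin alpha, beta and gamma genes (Lama, Lamb and Lamc). This gave 36 of the 55385 mouse genes in the count table, of which 35 are described, and Itga2b and Itgb2l fall outside the pattern. There were 3 libraries labelled Sox2 KO (knockout) and 3 labelled Sox2 overexpression, all from the same line, and the series' design text speaks of carcinoma cells low or high in Sox2 that were taken out of grafts. The labels give no unmodified control, no clone, promoter or vector, and no age or treatment of a host. Nothing says that the replicates came from separate tumours, so the p-values measure the spread between these libraries, which may be technical.

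Integrins are receptors made of 1 alpha and 1 beta chain that tie a cell to the matrix or to other cells. Laminins are trimers of an alpha, a beta and a gamma chain and form the basement membrane, the sheet on which epidermal basal cells sit. In epidermis the integrin of Itga6 and Itgb4 holds the hemidesmosome to a laminin with the chains of Lama3 and Lamb3, the integrins of Itga2 and Itga3 with Itgb1 bind collagen and laminin, and white blood cells carry integrins built on Itgb2 or Itgb7. The members were therefore sorted by where they are best known: 9 epithelial, 13 mesenchymal, 8 leukocyte and 5 broad (Itgav, Itgb1, Lama1, Lamb1 and Lamc1). The classes are textbook assignments and not exclusive, since Itga4 for example is also found on fibroblasts and muscle.

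Library totals lay between 31247976 and 38543221 counts. For Sox2 itself the knockout libraries held 49, 34 and 25 counts (replicates 1, 2 and 3) and the overexpression libraries 2566, 3790 and 4095, in the direction of the labels. The libraries also differed in markers of other cells. Of 10 fibroblast markers 9 were lower with overexpression (background 18.0% of all tested genes) and 1, Twist2, did not pass the test. The summed level of the 10 was 53212 to 81041 CPM (counts relative to a library size scaled by the TMM method) with knockout and 278 to 431 CPM with overexpression. Of 30 epithelial markers 26 were higher (background 13.6%) and 4 did not pass, with sums of 6887 to 10229 CPM and 17308 to 22401 CPM. All 8 mural and smooth muscle markers and 6 of 8 endothelial markers were lower (background 18.0%). Of these, the mural markers Rgs5, Cspg4, Cnn1, Des and Kcnj8 passed the count filter through the knockout libraries alone. So did the endothelial markers Cdh5, Kdr, Tie1 and Cldn5. Such a selection favours lower values with overexpression. No fibroblast, mural or endothelial marker was at 0 in every overexpression library. However, 3 endothelial markers (Cdh5, Emcn and Cldn5) and 1 mural marker (Kcnj8) had 3 counts or fewer in each of them, which is near the floor. In such bulk samples fewer cells of a type and less RNA per cell cannot be told apart, and the part of these markers in the results that follow was not tested.

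Epithelial integrin and laminin genes were partly higher with Sox2 overexpression, and mesenchymal and leukocyte members were lower. Of the 35 members, 33 passed the count filter and 26 of them passed an adjusted p of 0.05 (edgeR quasi-likelihood test, adjusted over all 18504 tested genes), where 31.6% of all tested genes did. Among these, 5 were higher with overexpression (background 13.6%) and 21 were lower (background 18.0%). At least 2-fold higher were 3 members, Itgb8, Lamb3 and Lama5 (background 6.10%), and at least 2-fold lower were 19 (background 15.3%). The 3 knockout and 3 overexpression values did not overlap for 26 of the 33 tested members, against 50.9% of all tested genes. Of the 9 epithelial members 5 were higher, 1 was lower and 3 did not pass. Of the 13 mesenchymal members 10 were lower, 2 did not pass and 1 was not tested. All 7 tested leukocyte members were lower, as were 3 of the 5 broad members. By family, 3 of 25 integrin genes were higher and 15 lower, and 2 of 10 laminin genes were higher and 6 lower. Of the tested members, 10 passed the filter through the knockout libraries alone: Itga1, Itga9, Itga11, Lama2, Itgae, Itgal, Itgam, Itgax, Itgb2 and Lama1. Such a selection favours lower values with overexpression, so the direction of these 10 is not independent of the filter. The strand setting of the counting is not given, so reads cannot be told apart from those of opposite-strand genes whose exons overlap Itga4, Itga7, Itga8, Itgad, Itgav, Itgb4, Lama2, Lama3 and Lamc3, and Itga1, Itga10, Itgad and Itgam share exon bases with a gene on the same strand. The count of higher members was 3 without knockout replicate 1, 2 or 3 or without overexpression replicate 3, and 4 without overexpression replicate 2.

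Because 26 of 30 epithelial markers were themselves higher with overexpression, each comparison was repeated with the libraries scaled to those 30 genes. On that scale, which shifts the median over all tested genes by -1.27 (log2) to -1.29, a value of 0 means that a gene moved as the typical epithelial marker did. The share of higher genes among all calls went from 43.1% to 2.08%, and among the members 1 was higher (Itgb8) and 29 were lower.

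**Figure D1:**
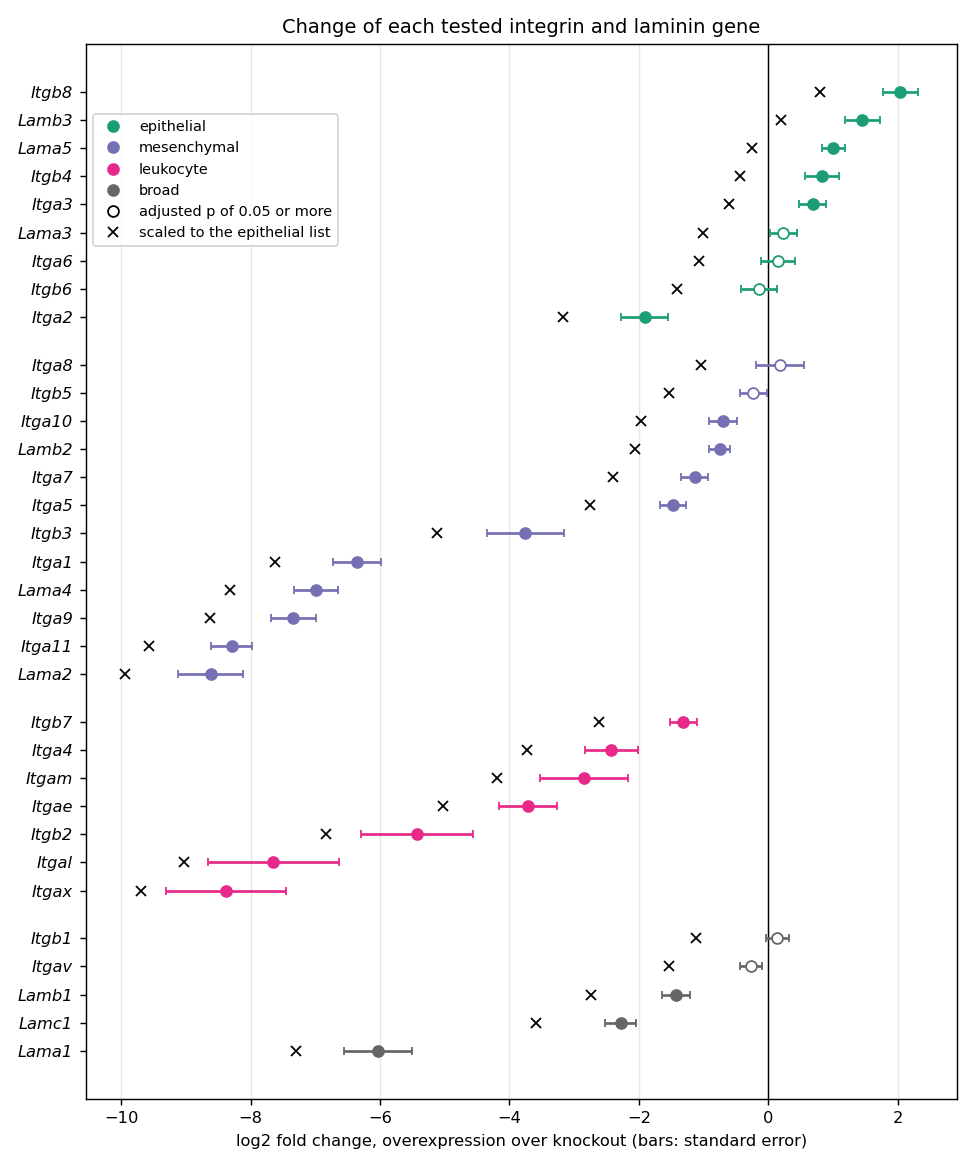
Log2 fold change of overexpression over knockout for the 33 tested members, by class, with its standard error; filled circles had an adjusted p under 0.05 and crosses give the value with libraries scaled to the epithelial marker list. Itgb8 lies at 2.04 and Lama2 at -8.62; the crosses of Lama5, Itgb4 and Itga3 lie below 0.

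For members that moved, the stretch before the transcription start is shown to give the sequence context of these genes. RefSeq promoter windows (GRCm38.p6, 250 bases before the start) were found for 22 of the 35 members, and no entry was matched for Itga6, Itga7, Itgad, Itgae, Itgal, Itgb2, Itgb3, Itgb4, Lama1, Lama3, Lama4, Lamc1 and Lamc3. The windows were searched on both strands for AACAAT (a core bound by SOX proteins), CAGGTG (an E2-box, bound by Snail and ZEB repressors), TGANTCA (AP-1) and GGGCGG (GC box), motifs that do not contain each other. The printed windows, chosen after the values were seen, are those of 3 members that were higher (Lama5, Lamb3 and Itga3) and 3 that were lower (Itga11, Lama2 and Itgax), each ended where an annotated exon begins. The RefSeq starts of Lamb3 and Lama2 lie inside the longer gene span of GENCODE M21. Capitals mark CAGGTG or its reverse complement, and in Itgax the SOX core.
Lama5, chr2:180225860-180226109, minus strand: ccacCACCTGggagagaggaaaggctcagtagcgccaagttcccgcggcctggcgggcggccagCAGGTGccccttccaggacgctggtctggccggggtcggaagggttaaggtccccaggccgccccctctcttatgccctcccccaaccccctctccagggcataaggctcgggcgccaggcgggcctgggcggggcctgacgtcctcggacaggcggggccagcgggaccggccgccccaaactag
Lamb3, chr1:193301744-193301992, plus strand: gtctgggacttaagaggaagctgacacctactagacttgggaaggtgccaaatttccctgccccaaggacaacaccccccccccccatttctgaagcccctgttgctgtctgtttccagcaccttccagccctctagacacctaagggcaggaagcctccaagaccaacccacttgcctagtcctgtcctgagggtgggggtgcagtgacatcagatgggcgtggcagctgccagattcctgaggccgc
Itga3, chr11:95076802-95076964, minus strand: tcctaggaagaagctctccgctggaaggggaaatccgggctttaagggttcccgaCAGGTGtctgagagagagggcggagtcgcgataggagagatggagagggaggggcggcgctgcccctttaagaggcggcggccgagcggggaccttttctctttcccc
Itga11, chr9:62677605-62677825, plus strand: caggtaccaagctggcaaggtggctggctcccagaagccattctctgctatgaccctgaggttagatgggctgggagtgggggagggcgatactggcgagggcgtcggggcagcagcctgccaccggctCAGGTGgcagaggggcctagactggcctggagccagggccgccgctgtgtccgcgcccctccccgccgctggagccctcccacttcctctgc
Lama2, chr10:27616943-27617192, minus strand: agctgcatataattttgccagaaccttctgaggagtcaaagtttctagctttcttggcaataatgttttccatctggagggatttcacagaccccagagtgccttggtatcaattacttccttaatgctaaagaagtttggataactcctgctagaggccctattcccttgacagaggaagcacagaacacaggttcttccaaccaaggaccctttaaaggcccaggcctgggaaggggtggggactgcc
Itgax, chr7:128129300-128129546, plus strand: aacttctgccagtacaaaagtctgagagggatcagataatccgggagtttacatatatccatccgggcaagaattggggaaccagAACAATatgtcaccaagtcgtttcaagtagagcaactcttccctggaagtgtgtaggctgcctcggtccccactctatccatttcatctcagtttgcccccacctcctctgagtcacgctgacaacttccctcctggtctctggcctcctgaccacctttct

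The E2-box stood in 8 of the 25 member windows and in 17.2% of all 32851 windows. Lama5 held it 246 and 186 bases before the start, Itga3 195 bases before and Itga11 121 bases before, so that it occurred in windows of genes from both directions. Lamb3 has another RefSeq start, whose window is not printed and held the E2-box 6 bases before that start. The SOX core stood in 3 member windows (Itgax, Itga8 and the downstream start of Itgb6) and in 9.42% of all windows. The AP-1 site stood in 1 member window, that of Itgax, and in 6.75% of all windows. The GC box stood in 9 member windows and in 32.7% of all windows. A match describes letters only, and no match says nothing about binding.

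Among the epithelial integrins, Itgb8, Itgb4 and Itga3 were higher with overexpression and Itga2 was lower. Itgb8 (ENSMUSG00000025321; chromosome 12, 119158022 to 119238802, GRCm38) encodes a beta chain that pairs with the alphav chain of Itgav and releases active TGF-beta. Its level was 4.02, 3.21 and 2.38 CPM in knockout replicates 1, 2 and 3 and 15.7, 10.99 and 12.8 CPM in overexpression replicates 1, 2 and 3. The lowest overexpression library was far above the highest knockout library, and the log2 fold change was 2.04 (standard error 0.27, adjusted p = 0.000575, edgeR). It was also higher on the epithelial scale (0.80, adjusted p = 0.0328).

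Itgb4 (ENSMUSG00000020758; chromosome 11, 115974709 to 116008412) encodes the hemidesmosomal beta chain. It had 710.0, 706 and 442 CPM in the knockout libraries and 799, 1261 and 1245 CPM in the overexpression libraries, in replicate order. The groups did not overlap, with knockout replicate 3 the lowest, and the log2 fold change was 0.83 (standard error 0.26, adjusted p = 0.0378, edgeR), which turned to -0.44 on the epithelial scale. The call held without overexpression replicate 1 (adjusted p = 0.0138, edgeR) and was lost without any of the other 5 libraries: the adjusted p was 0.0543, 0.0685 and 0.111 without knockout replicate 1, 2 and 3, and 0.0964 and 0.103 without overexpression replicate 2 and 3. The exons of Itgb4 overlap those of B230344G16Rik on the other strand.

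Itga3 (ENSMUSG00000001507; chromosome 11, 95044474 to 95076801), the alpha chain of a laminin receptor of basal keratinocytes, had 602, 561 and 534 CPM with knockout and 743, 1177 and 810.2 CPM with overexpression. Overexpression replicate 2 was the highest, and the groups did not overlap. The log2 fold change was 0.69 (standard error 0.21, adjusted p = 0.0345, edgeR), and on the epithelial scale it was -0.61 (adjusted p = 0.0147), past the threshold in the other direction. Without knockout replicate 1, 2 or 3 or overexpression replicate 3 the adjusted p was 0.0706, 0.104, 0.103 and 0.0506.

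Itga6 (ENSMUSG00000027111; chromosome 2, 71745616 to 71858416), the partner of Itgb4 in the hemidesmosome and a surface marker used to sort epidermal stem cells, did not pass the test. Its level was 368, 336 and 191 CPM with knockout and 333, 262 and 399 CPM with overexpression, so that the groups overlapped. Its log2 fold change was 0.15 (standard error 0.27, adjusted p = 0.694, edgeR), and it was -1.08 on the epithelial scale (adjusted p = 0.00366). The 2 chains of the hemidesmosomal integrin thus had different values in the same libraries, but the difference between their changes was not tested.

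Itga2 (ENSMUSG00000015533; chromosome 13, 114833081 to 114932100), the alpha chain of a collagen receptor, was the epithelial member that fell. It had 21.3, 20.3 and 11.02 CPM with knockout and 2.72, 6.09 and 5.16 CPM with overexpression. The lowest knockout library, replicate 3, lay above the highest overexpression library, and the log2 fold change was -1.91 (standard error 0.36, adjusted p = 0.00392, edgeR). Itgb6, which forms the alphav integrin that epithelia induce in wounds and carcinomas, stayed between 7.37 and 13.4 CPM in all 6 libraries with overlapping groups (log2 fold change -0.14, adjusted p = 0.725, edgeR).

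Among the epithelial laminins, Lamb3 and Lama5 were higher with overexpression, while Lama3, the alpha chain that assembles with Lamb3 in the epidermal anchoring laminin, did not pass the test. Lamb3 (ENSMUSG00000026639; chromosome 1, 193207699 to 193343878) had 253, 263 and 144 CPM in knockout replicates 1, 2 and 3. With overexpression it had 454, 661 and 696 CPM. All overexpression libraries were above all knockout libraries, and the log2 fold change was 1.46 (standard error 0.27, adjusted p = 0.00356, edgeR). On the epithelial scale it was 0.19 (adjusted p = 0.466).

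Lama5 (ENSMUSG00000015647; chromosome 2, 180176373 to 180225859), the alpha chain of the laminins found under most mature epithelia, had 473, 337 and 386 CPM with knockout and 747, 792 and 865 CPM with overexpression. Its groups were far apart relative to their spread (399 ± 68.8 against 802 ± 59.7 CPM, SD, n = 3 each), and the log2 fold change was 1.01 (standard error 0.18, adjusted p = 0.003, edgeR), but -0.25 on the epithelial scale (adjusted p = 0.231).

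Lama3 (ENSMUSG00000024421), whose exons overlap those of Gm29200 on the other strand, had 225, 203 and 143 CPM with knockout and 216, 191 and 266 CPM with overexpression (log2 fold change 0.23, standard error 0.21, adjusted p = 0.425, edgeR). Its groups overlapped, and it was lower past the threshold on the epithelial scale (-1.01). Of the 9 epithelial members, 7 had their lowest knockout value in knockout replicate 3. The same library was the lowest for the basal keratins Krt5 (772, 1105 and 218 CPM in knockout replicates 1, 2 and 3) and Krt14 (1019.7, 1439.8 and 347 CPM). Other epithelial markers differed: Epcam (396, 294 and 363 CPM) and Cdh1 (298, 196 and 309 CPM) were lowest in knockout replicate 2. The sum of the epithelial markers was lowest in knockout replicate 3 (10229, 8999.5 and 6887 CPM). The part of these differences between libraries in the results was not tested.

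**Figure D2:**
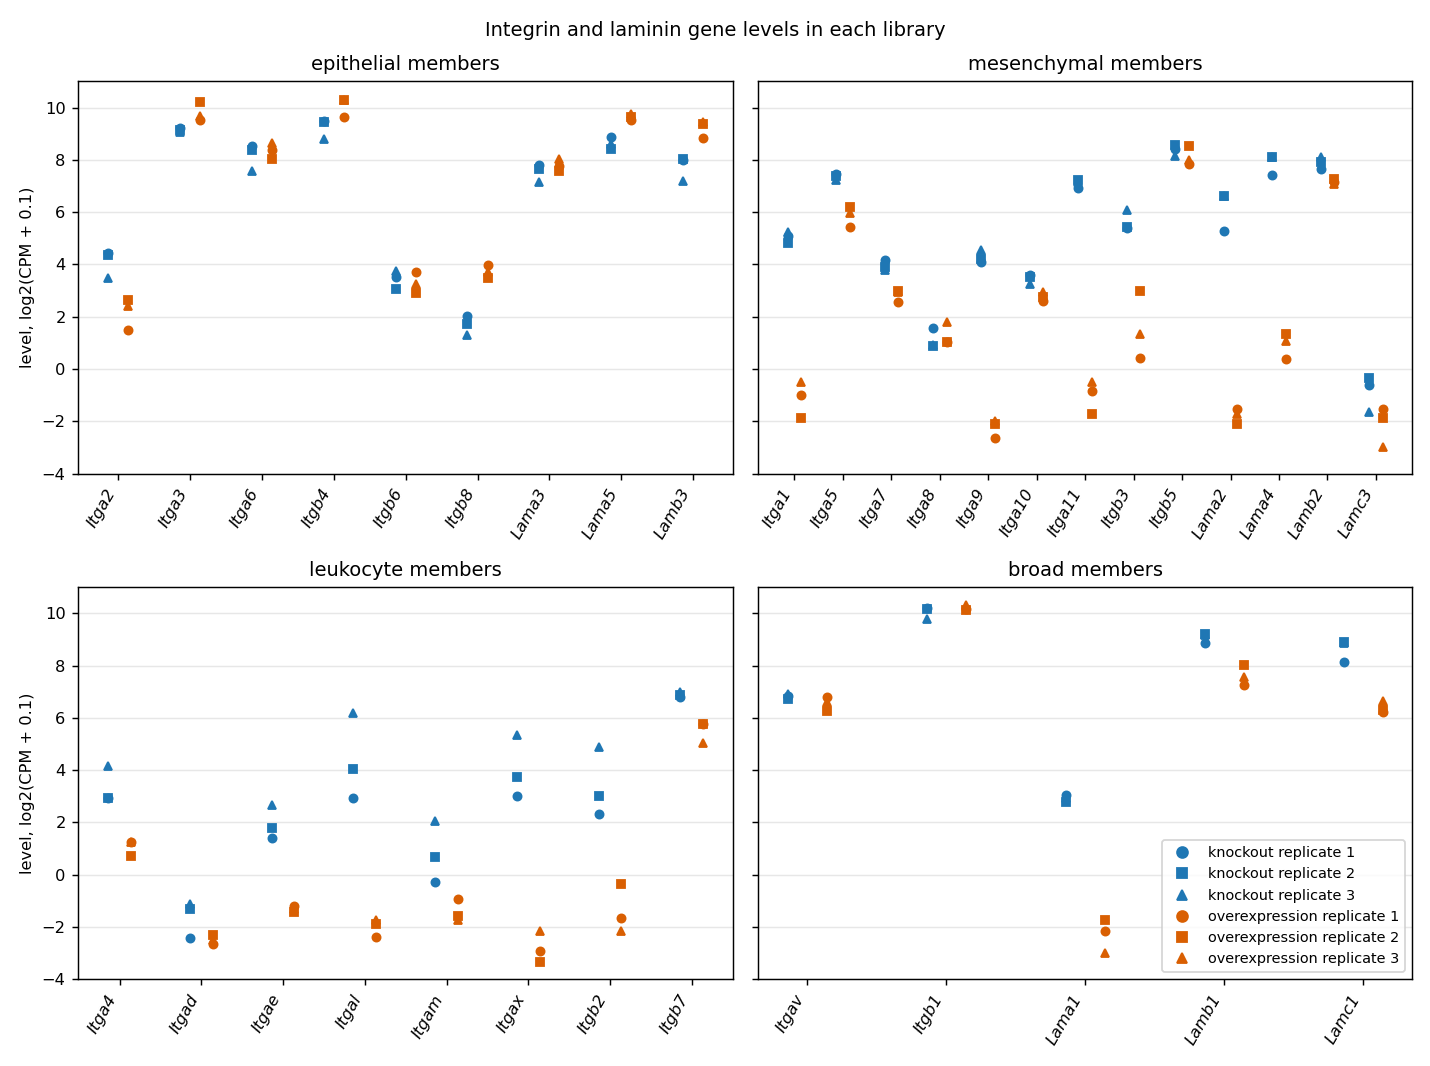
Level of each member in each library, as log2(CPM + 0.1), with 1 panel per class; blue is knockout and orange overexpression, and the marker shape is the replicate. Itgb1, Itgb4, Itga3 and the epithelial laminins lie high in all 6 libraries, and Itga1, Itga9, Itga11, Lama2 and Lama4 fall apart into separate groups.

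Mesenchymal members fell with overexpression over a wide range of sizes. Itga11 (ENSMUSG00000032243; chromosome 9, 62677826 to 62783982), the alpha chain of the main collagen receptor of activated fibroblasts, had 123, 149 and 142 CPM with knockout and 0.458, 0.203 and 0.607 CPM with overexpression. No library of one group came near the other, and the log2 fold change was -8.30 (standard error 0.32, adjusted p = 1.44e-06, edgeR). Lama4 (ENSMUSG00000019846; chromosome 10, 38965515 to 39110188), a laminin alpha chain of vessel walls and connective tissue, had 169, 274 and 274 CPM with knockout and 1.22, 2.40 and 2.02 CPM with overexpression (log2 fold change -6.99, adjusted p = 2.12e-06, edgeR). Lama2 (ENSMUSG00000019899; chromosome 10, 26980036 to 27619758), the muscle and nerve laminin alpha chain, had 38.3, 97.8 and 99.3 CPM with knockout and only 8, 4 and 8 counts in the overexpression libraries (log2 fold change -8.62, adjusted p = 5.29e-06, edgeR). Both laminins were lowest among the knockout libraries in replicate 1, as was the sum of the fibroblast markers. Col1a1, Col1a2 and Col3a1 made up most of that sum (18758, 13877 and 18702 CPM in knockout replicate 1). The fibroblast markers Pdgfra (259, 258 and 223 CPM) and Pdgfrb (224, 208 and 187 CPM) were lowest in knockout replicate 3, as were 5 mesenchymal members. Markers of muscle and nerve, the tissues Lama2 is best known from, were also examined. Of 6 skeletal muscle markers 2 (Acta1 and Des) were lower (background 18.0%) and 4 were not tested. Des passed the count filter through the knockout libraries alone. Of 5 nerve markers 4 did not pass (adjusted p from 0.193 to 0.367, edgeR) and 1, Sox10, was not tested. Sox10 had 17, 120 and 10 counts with knockout and 0, 2 and 1 counts with overexpression, without overlap.

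Itga1, the alpha chain of a collagen receptor of stroma, had 33.6, 28.4 and 37.96 CPM with knockout and 0.397, 0.169 and 0.607 CPM with overexpression (log2 fold change -6.36, adjusted p = 5.08e-06, edgeR). Itga9, a receptor chain for tenascin and osteopontin, had 16.9, 18.4 and 23.5 CPM with knockout and 2, 4 and 6 counts in the overexpression libraries (log2 fold change -7.34, adjusted p = 2.09e-06, edgeR). The fitted sizes for Lama2 and Itga9 rest on these few overexpression counts. Itgb3, a beta chain for vitronectin and fibronectin receptors, had 42.2, 43.1 and 67.9 CPM with knockout and 1.25, 7.75 and 2.45 CPM with overexpression (log2 fold change -3.75, adjusted p = 0.00153, edgeR). Overexpression replicate 2 held most of the remaining Itgb3, and without it the overexpression mean went from 3.82 to 1.85 CPM and the log2 fold change to -4.75.

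The other mesenchymal members that fell did so by a few fold and were measurable in both groups. Itga5 (ENSMUSG00000000555; chromosome 15, 103344286 to 103366763), the fibronectin receptor alpha chain, had 178, 165 and 152 CPM with knockout and 43.5, 72.7 and 62.8 CPM with overexpression (log2 fold change -1.47, standard error 0.20, adjusted p = 0.000735, edgeR). Lamb2 had 203, 245 and 275 CPM with knockout and 141, 156 and 135 CPM with overexpression (log2 fold change -0.75, adjusted p = 0.00811, edgeR). Itga7, a laminin receptor chain of muscle, had 17.7, 14.8 and 13.8 CPM and 5.77, 7.71 and 7.64 CPM (log2 fold change -1.13, adjusted p = 0.00346, edgeR). In these 3 genes the groups stayed apart at both levels. Itga10, a collagen receptor chain of cartilage, lay between 5.92 and 12.05 CPM (log2 fold change -0.70, adjusted p = 0.034, edgeR), and its adjusted p was 0.108 and 0.109 without knockout replicate 1 and 2 and 0.104, 0.0568 and 0.0604 without overexpression replicate 1, 2 and 3.

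Itgb5 (ENSMUSG00000022817; chromosome 16, 33829665 to 33949338), an alphav partner found on fibroblasts and keratinocytes, did not pass the test. It had 338, 378 and 287 CPM with knockout and 229, 369.7 and 256 CPM with overexpression, and overexpression replicate 2 lay within the knockout range (log2 fold change -0.23, standard error 0.21, adjusted p = 0.439, edgeR). Itga8 did not pass either, at 1.72 to 3.36 CPM in the 6 libraries. Lamc3 had 19, 21 and 8 counts with knockout and 8, 5 and 1 counts with overexpression and was not tested. The 9 fibroblast markers that were lower had log2 fold changes down to -9.98, and their part in the mesenchymal members' values was not tested.

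Leukocyte integrins were lower with overexpression, and in the knockout group they were carried unevenly. Itgal (ENSMUSG00000030830; chromosome 7, 127296260 to 127335138), the alpha chain of LFA-1 on lymphocytes, was at 7.62, 16.3 and 72.5 CPM in the knockout libraries, in replicate order, and had 3, 5 and 8 counts with overexpression. Itgax (ENSMUSG00000030789; chromosome 7, 128129547 to 128150657), the CD11c chain of dendritic cells and macrophages, had 7.86, 13.4 and 40.3 CPM with knockout and 1, 0 and 5 counts with overexpression. Itgb2, the beta chain that both share, had 4.89, 7.90 and 29.8 CPM with knockout and 0.214, 0.677 and 0.126 CPM with overexpression. Knockout replicate 3 was the highest library for all 8 leukocyte members. The leukocyte marker Ptprc (CD45) followed the same knockout order as Itgal, with 10.6, 21.6 and 88.1 CPM, and had 0.427, 0.541 and 0.506 CPM with overexpression. Another leukocyte marker, Csf1r, did not, with 5.72, 5.42 and 8.11 CPM with knockout and 16.1, 12.8 and 6.02 CPM with overexpression.

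The log2 fold changes were -7.65 for Itgal, -8.38 for Itgax and -5.43 for Itgb2 (adjusted p = 0.000578, 0.000204 and 0.00167, edgeR). Without knockout replicate 3 they were -6.22, -7.42 and -4.27, with knockout means of 11.96, 10.6 and 6.40 CPM in place of 32.1, 20.5 and 14.2 CPM. The few overexpression counts also bear on these sizes: the value of Itgax was -10.00 without overexpression replicate 3 and that of Itgb2 -6.36 without overexpression replicate 2. The alpha chain of the phagocyte integrin CD11b, Itgam, had 0.733, 1.49 and 4.06 CPM with knockout and 0.427, 0.237 and 0.202 CPM with overexpression (log2 fold change -2.85, adjusted p = 0.0129, edgeR). It was -1.92 without knockout replicate 3, and its adjusted p was 0.0626 and 0.0508 without overexpression replicate 2 and 3. Its exons overlap those of Gm49368 on the same strand. Itgad had 3, 9 and 13 counts with knockout and 2, 3 and 3 counts with overexpression and was not tested.

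Itgb7 (ENSMUSG00000001281; chromosome 15, 102215995 to 102231944) also fell, but was still measured at a moderate level in every overexpression library. It encodes the beta chain that pairs with Itga4 on gut-homing lymphocytes and with Itgae on lymphocytes that settle in epithelia. Its level was 111, 117 and 127 CPM with knockout and 55.02, 54.7 and 33.2 CPM with overexpression, and its log2 fold change was -1.31 (standard error 0.21, adjusted p = 0.00163, edgeR). The knockout libraries were close to each other, the overexpression libraries held 1803, 1618 and 1311 counts, and the groups did not overlap.

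Its known partners were far lower per length. Itga4, whose exons overlap those of Cerkl on the other strand, had 7.53, 7.47 and 17.9 CPM with knockout and 2.29, 1.56 and 2.28 CPM with overexpression (log2 fold change -2.42, adjusted p = 0.00204, edgeR), and Itgae had 2.58, 3.34 and 6.19 CPM and 0.336, 0.271 and 0.304 CPM (log2 fold change -3.72, adjusted p = 0.000334, edgeR). As CPM per kilobase of annotated exon, Itgb7 stood at 42.8 ± 2.92 with knockout and 17.2 ± 4.53 with overexpression (SD, n = 3 each). On that scale Itga4 stood at 0.785 ± 0.430 and 0.146 ± 0.0300, and Itgae at 0.881 ± 0.416 and 0.0662 ± 0.00710. Itgb7 was thus above both in each group by more than the spread between replicates.

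**Figure D3:**
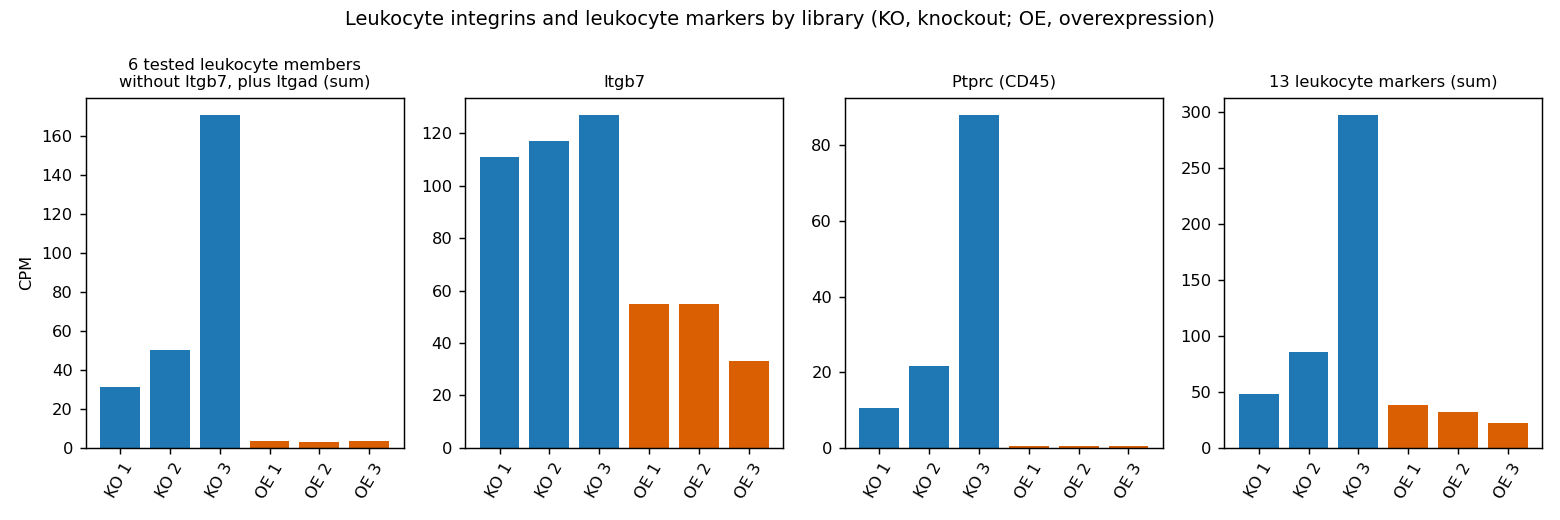
CPM in each library of the leukocyte members summed without Itgb7 (left), of Itgb7, of Ptprc and of the 13 leukocyte markers summed (right). The first sum ran from 31.3 to 171 CPM over the knockout libraries and from 3.01 to 3.45 CPM over the overexpression libraries, and Itgb7 was at 33.2 CPM or more in every library.

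Of the 13 leukocyte markers, 6 were lower (background 18.0% of all tested genes), 3 (Cd53, Csf1r and Cd68) did not pass and 4 were not tested. Among the lower ones, Cd52, Cd3g, Csf3r and Laptm5 passed the count filter through the knockout libraries alone, which favours lower values. Csf1r and Cd68 had higher means with overexpression (log2 fold change 0.86 and 0.49, adjusted p = 0.103 and 0.356, edgeR), and Cd53 a lower one (-0.51). The 13 markers summed to 48.1 to 297 CPM with knockout and 21.9 to 38.4 CPM with overexpression. None was at 0 in every overexpression library, but 4 (Adgre1, Cd3e, Cd79a and S100a8) had 3 counts or fewer in each of them. Their part in the leukocyte members' values was not tested.

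The broad members split between the receptor chains and the laminins. Itgb1 (ENSMUSG00000025809; chromosome 8, 128685654 to 128733200), the partner of most alpha chains, had 1189, 1144 and 881 CPM with knockout and 1142, 1109 and 1291 CPM with overexpression. Itgav (ENSMUSG00000027087; chromosome 2, 83724397 to 83806916), the RGD-binding alpha chain, whose exons overlap those of Gm13684 on the other strand, had 115, 104 and 121 CPM and 111, 76.04 and 96.4 CPM. Neither passed the test, with overlapping groups, log2 fold changes of 0.14 and -0.26 and adjusted p-values of 0.592 and 0.271 (edgeR).

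Lamc1 (ENSMUSG00000026478; chromosome 1, 153218922 to 153332786), the gamma chain of most basement membrane laminins, had 285, 478 and 469.8 CPM with knockout and 75.2, 78.95 and 98.97 CPM with overexpression (log2 fold change -2.28, standard error 0.24, adjusted p = 0.000139, edgeR). Lamb1 (ENSMUSG00000002900; chromosome 12, 31265234 to 31329644), its usual beta partner, had 471, 594 and 571 CPM and 154, 263 and 191 CPM (log2 fold change -1.43, standard error 0.22, adjusted p = 0.00141, edgeR). In both genes the groups were well apart. Lama1, a laminin alpha chain of embryonic basement membranes, had 8.18, 6.78 and 7.59 CPM with knockout and 4, 6 and 1 counts in the overexpression libraries (log2 fold change -6.04, adjusted p = 5.1e-05, edgeR). Its value was -6.65 without overexpression replicate 2, where the overexpression mean went from 0.117 to 0.0737 CPM.

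The make-up of each chain type within a library does not depend on how libraries are scaled. Counts were divided by the length of annotated exon and expressed as a share of the chain type, and these shares are descriptions with no test. Among laminin alpha chains, Lama5 held 52.1, 38.01 and 44.1% in knockout replicates 1, 2 and 3 and 76.4, 79.5 and 75.3% with overexpression, and Lama4 held 17.6, 29.2 and 29.6% and 0.118, 0.227 and 0.166%. Lama3 kept a similar share (22.6 ± 4.67% and 22.7 ± 2.20%, SD, n = 3 each) with overlapping groups. Among laminin beta chains, Lamb3 held 32.1, 28.4 and 17.5% with knockout and 63.97, 65.7 and 71.8% with overexpression. For Lama5 and Lamb3 the groups did not overlap, and knockout replicate 1 was the knockout library closest to the overexpression group in both.

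Among integrin beta chains, Itgb1 held the largest share in all 6 libraries (52.1 ± 1.92% with knockout and 53.2 ± 5.68% with overexpression, SD, n = 3 each). Itgb4 held 17.4 ± 2.32% and 28.4 ± 4.13%, Itgb5 18.7 ± 1.02% and 14.6 ± 2.97%, and Itgb7 8.65 ± 1.78% and 3.20 ± 1.05%. With knockout the shares of Itgb5 and Itgb4 differed by less than their spread, and with overexpression Itgb4 was above Itgb5 in each library. Among integrin alpha chains Itga3 was the largest, at 43.9 ± 1.19% with knockout and 71.6 ± 6.54% with overexpression. With knockout, Itga5 (14.8 ± 0.698%), Itga6 (14.6 ± 4.25%) and Itga11 (11.9 ± 1.44%) came next, and Itga6 overlapped the other two. With overexpression Itga6 came second at 17.2 ± 5.27%, above Itga5 (5.44 ± 0.697%) and Itga11 (0.0394 ± 0.0214%).

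**Figure D4:**
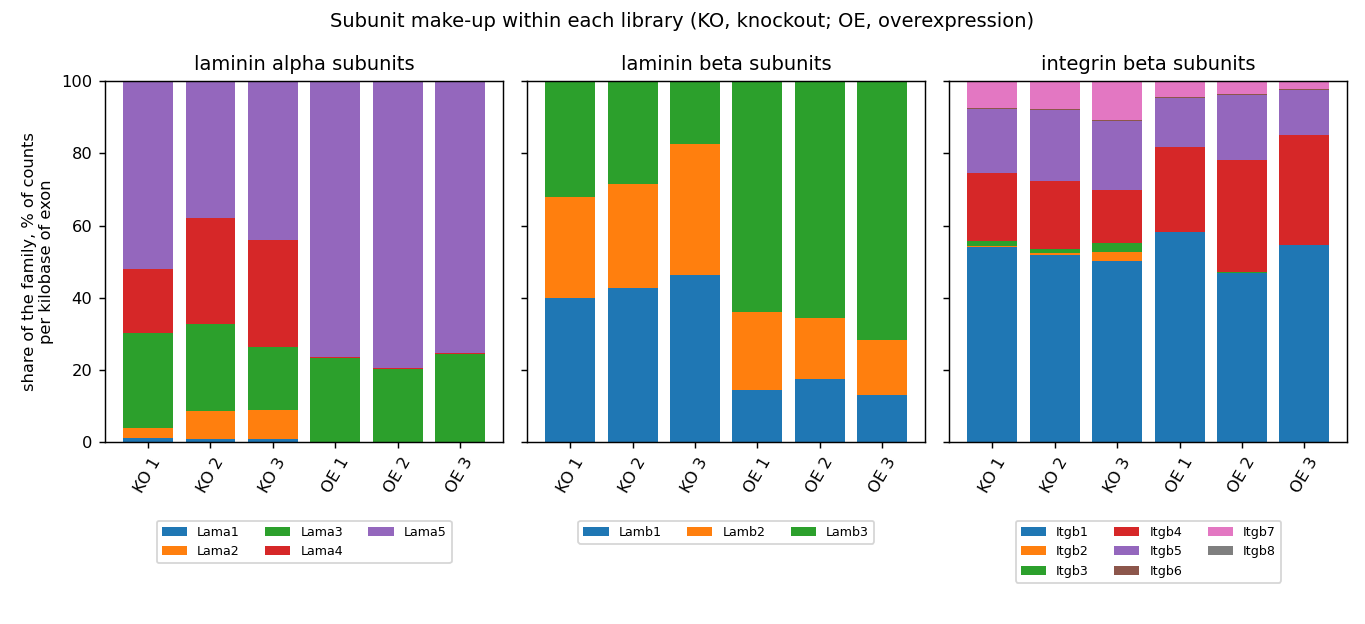
Share of each chain among the laminin alpha and beta chains and the integrin beta chains in each library, as a percentage of counts per kilobase of exon. Lamb3 takes 26.02 ± 7.58% of the laminin beta chains with knockout and 67.2 ± 4.12% with overexpression (SD, n = 3 each), and Lama4 drops out of the alpha chains.

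Ratios of 2 members within a library were compared for 7 pairs with an exact permutation test over the 6 libraries, two-sided, which cannot give a p below 0.10. For 6 of the 7 pairs the groups did not overlap and the p was 0.10 (0.117 after Benjamini-Hochberg adjustment over the 7 pairs), which does not pass 0.05. The log2 ratio of Lamb3 to Lamb1 was -0.89, -1.18 and -1.98 in the knockout libraries and 1.55, 1.33 and 1.87 in the overexpression libraries, a difference of 2.93 (2.62 to 3.16 when 1 library was left out). The ratio of Itgb4 to Itgb1, the beta chains that Itga6 can pair with, was -0.74, -0.70 and -0.99 and -0.51, 0.19 and -0.053, a difference of 0.68. Both pairs moved toward the epithelial chain in the overexpression libraries.

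The ratio of Itga6 to Itga5, a laminin against a fibronectin receptor chain, differed by 1.68. The ratios of Lama3 to Lama4, of Lama5 to Lama2 and of Itga2 to Itga11 differed by 7.18, 8.97 and 6.22, and their size depends on the 0.1 CPM added to both values. Itga2 thus gained relative to Itga11 although both fell. The ratio of Itgb6 to Itgb5, both partners of Itgav, had overlapping groups, a difference of 0.10 and an exact permutation p of 0.80 (adjusted 0.80).

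**Figure D5:**
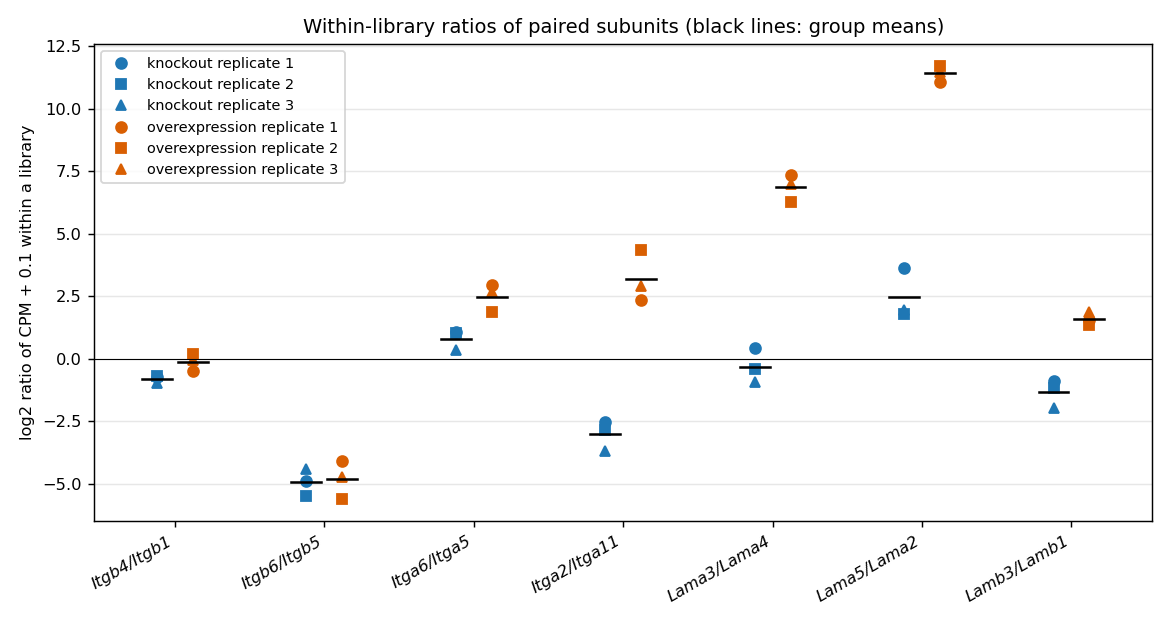
Log2 ratio of 2 members (CPM + 0.1) in each library for 7 pairs, with the group mean as a black line; blue is knockout, orange overexpression and the shape the replicate. The groups are apart for every pair but Itgb6/Itgb5, by 0.68 for Itgb4/Itgb1 up to 8.97 for Lama5/Lama2.

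Genes that work with integrins and laminins were taken as lists. Of 28 adaptors and kinases that link integrins to actin, 27 were tested, 6 were higher (background 13.6% of all tested genes) and 10 were lower (background 18.0%). The count of higher genes was 3 without knockout replicate 2 or without knockout replicate 3. The median log2 fold change of the list was -0.20, beside -0.016 over all genes tested. Those with the smallest p among the lower were Tns1, Fermt2 and Fyn. Tns1 had 15, 9 and 29 counts with overexpression. Tns1 and Parvg, a further lower gene (8, 10 and 12 counts with overexpression), passed the count filter through the knockout libraries alone, which favours lower values. Tns1, a tensin of fibrous adhesions, went from 80.7 ± 27.2 to 0.499 ± 0.217 CPM (SD, n = 3 each; log2 fold change -7.29), and Fermt2, the kindlin of most cells, from 67.8 ± 4.68 to 12.9 ± 1.95 CPM (-2.39). Fermt1, the epidermal kindlin, had 81.7 ± 13.6 and 88.5 ± 18.4 CPM (SD, n = 3 each; log2 fold change 0.12, adjusted p = 0.687, edgeR) and was named after its value was seen. For Fyn, a Src family kinase, the log2 fold change was -3.27. Those with the smallest p among the higher were Bcar1, Tns4 and Parva, with log2 fold changes of 0.99, 1.01 and 0.83, which were -0.30, -0.24 and -0.45 on the epithelial scale.

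Of 6 hemidesmosome genes (Plec, Dst, Col17a1, Cd151, Krt5 and Krt14) 0 passed the edgeR test after adjustment (background 31.6% in either direction), 3 had an unadjusted p under 0.05, and 1 passed with DESeq2. This count changed with single libraries: 2 passed, both higher, without knockout replicate 2 (Col17a1, adjusted p = 0.0336, and Krt5, adjusted p = 0.0392, edgeR), and 1 passed without knockout replicate 3 (Col17a1, 0.0187), without overexpression replicate 1 (Krt5, 0.0497) and without overexpression replicate 2 (Plec). Col17a1 and Krt5 also passed with no filter on low counts, and on the epithelial scale 3 others (Plec, Dst and Cd151) were lower. Col17a1, the transmembrane collagen beside the Itga6 and Itgb4 integrin, had 474, 759 and 90.01 CPM in the knockout libraries and 1214, 1324 and 2177 CPM in the overexpression libraries (log2 fold change 1.83, standard error 0.63, adjusted p = 0.0541, edgeR). Knockout replicate 3 was the lowest library for Col17a1, as it was for Itgb4, Itga6, Lama3 and Lamb3.

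Of 19 basement membrane partners of laminin, 17 were tested, 4 were higher (background 13.6%) and 6 were lower (background 18.0%). The median log2 change was -0.30. Nid1 and Nid2, the nidogens that join laminin to collagen IV, fell. Nid1 went from 689.5 ± 194 to 2.48 ± 0.853 CPM (SD, n = 3 each; log2 fold change -8.10) and Nid2 from 60.6 ± 13.8 to 0.173 ± 0.138 CPM (SD, n = 3 each; log2 fold change -8.34). Frem1 fell as well, to 3, 3 and 2 counts with overexpression (at most 0.101 CPM), and its fitted log2 fold change of -5.06 rests on these few counts. Nid2 had 4, 2 and 13 counts with overexpression. Nid2, Frem1 and Fras1, a further lower gene (10, 10 and 1 counts with overexpression), passed the count filter through the knockout libraries alone, which favours lower values. Nidogens bind the gamma chain of Lamc1, which fell in the same libraries. Among the higher genes, Col4a5 went from 36.2 ± 4.31 to 139 ± 10.6 CPM (SD, n = 3 each; log2 fold change 1.94) and Bcam, a receptor for the Lama5 chain, from 24.9 ± 11.8 to 225 ± 59.1 CPM (SD, n = 3 each; log2 fold change 3.18). Both were also above 0 on the epithelial scale (0.68 and 1.93), while Agrn was higher by 0.93 and at -0.36 on that scale. Bcam and Lama5 were both higher, each with groups that did not overlap, as in 50.9% of all tested genes. On the epithelial scale Lama5 was at -0.25, unlike Bcam.

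Of 20 genes listed as other integrin ligands, 19 were tested, 14 were lower (background 18.0%) and 1 was higher (background 13.6%). The lower genes Vtn (0, 0 and 1 counts with overexpression) and Icam2 (0, 1 and 0 counts) passed the count filter through the knockout libraries alone, which favours lower values. The list's median log2 fold change was -2.56. The fibrillin Fbn1, osteopontin (Spp1) and Tgfb2 had the smallest p among the lower, with log2 fold changes of -6.77, -2.94 and -4.76. Whether each listed gene binds an integrin was not tested. Spp1, a ligand of alphav and Itga9 integrins, was even across replicates, at 331, 327 and 331 CPM with knockout and 44.2, 45.7 and 39.03 CPM with overexpression. The gene that was higher was Cdh1, E-cadherin, which is also the ligand of the Itgae integrin, with a log2 fold change of 1.33 (0.047 on the epithelial scale). It is also among the epithelial markers.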

How the data were processed

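The authors deposited raw counts per gene, whole numbers with 1 column per library, and columns were assigned to samples by the labels' description field. The libraries were made with a low-input kit, per the labels. kallisto 0.44.0 and the build mm10 are named in the submitters' processing notes, and the counting step, annotation and strand setting are not given in the sources used here. The table has 55481 rows, and the 96 that name no mouse gene (2.23e-05% of the counts or less in each library) were not used. Symbols, exon lengths and coordinates are those of GENCODE M21 (GRCm38), and promoters those of RefSeq.

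filterByExpr (minimum count 10, minimum total 15) kept 18504 genes, which were scaled with TMM and tested with edgeR 4.0.16 (glmQLFit, glmQLFTest; R 4.3.3), in 1 fit of all 6 libraries on group alone, with Benjamini-Hochberg adjustment over all tested genes (threshold 0.05). The standard error is the log2 fold change divided by the square root of F. CPM values use TMM library sizes, in which 3 counts, the limit that a count of 0 allows (counting error only), are 0.0759 to 0.101 CPM. Of the 36 genes in the name pattern, 1 is not reported here, nor is 1 gene of a marker list, and neither enters a count, pair or share. The other members are all named: per-library values are given for the 5 highest of each class and for others past the threshold with at least 2-fold change and 1 CPM, and from each partner list the 3 genes with the smallest p in each direction are named. Lama3, Col17a1, Krt5, Krt14, Fermt1 and Sox10 fall outside this rule and were chosen after their values were seen. So were the printed values of the markers Epcam, Cdh1, Csf1r, Cd68, Pdgfra, Pdgfrb, Col1a1, Col1a2 and Col3a1. Members, lists and classes were chosen with earlier results of these data known. On simulated counts for 18504 genes, the test recovered 69 of 96 genes changed 4-fold and 33 of 104 changed 2-fold, and 14 of 116 calls were false. Only 200 genes were changed in the simulation, while 31.6% of tested genes were called in the data. These rates therefore need not hold for the calls reported here. The smallest chi-square per degree of freedom between replicates was 43.8, so no 2 libraries agreed within sampling noise. DESeq2 1.42.0 was used as an alternative, with the other alternatives given at the end.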

Additional observations from a re-analysis of the deposited data

How the results depend on the processing

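RLE or upper-quartile normalization, robust dispersion and the DESeq2 test gave each of the 33 tested members the same direction and side of the threshold; without the filter 1 member no longer passed. The scaling to epithelial markers moved most: 15169 genes past the threshold in all, 1 member higher in total and 1 among the epithelial members, and values of the other sign for Itga3 (-0.61), Itgb4 (-0.44), Lama5 (-0.25), Itga6 (-1.08), Lama3 (-1.01), Itga8 (-1.04) and Itgb1 (-1.12). With 1 library left out, the count of higher members, all epithelial, ranged from 3 to 5. The log2 fold changes of 3 members that did not pass took both signs with 1 library left out: Itga6 from -0.083 to 0.34, Itgb6 from -0.37 to 0.053 (0.032 without knockout replicate 3) and Itga8 from -0.12 to 0.47. The difference of the Itgb6/Itgb5 ratio ranged from -0.26 to 0.50 with 1 library left out. Adding 1 CPM in place of 0.1 gave differences of 4.90 for Itga2/Itga11 and 6.95 for Lama5/Lama2. The cause of these changes was not tested, except that a larger prior shrinks a ratio by construction. The replicate numbers did not pair the libraries (correlations of -0.040 to 0.051 between same-numbered libraries, and none of the correlations over 0.1). With the replicate number as a block 25 members passed, 5 higher and 20 lower, Itga10 was the member that no longer passed, and 2 hemidesmosome genes (Col17a1 and Krt5) passed in place of 0. Depth limits Itgad and Lamc3, with at most 21 counts in any library.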

Other observations

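Itga2b, the alpha chain of the platelet integrin, and Itgb2l lie outside the name pattern. Itga2b had 10.1, 15.97 and 12.6 CPM in the knockout libraries and 5.89, 8.39 and 8.47 CPM in the overexpression libraries (log2 fold change -0.76, adjusted p = 0.0456, edgeR), and it passed the threshold in 1 of the 6 fits that each left out a library. Itgb2l was not tested.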
